A study of Rattus norvegicus with 8 samples.

Results

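The 10 genes described here encode proteins by which a macrophage takes up, stores and releases iron, or that regulate these steps. They were chosen by symbol from the deposited table, which held 23487 genes, and all 10 were found in it. Macrophages were sorted from the peritoneal cavity of female Wistar rats, 8 weeks old, 15 days after a single intraperitoneal injection of 2 mg multi-walled carbon nanotubes. In the CNT-7 group (4 rats) these were the needle-like MWCNT-XNRI-7, which induce mesothelioma, and in the CNT-T group (4 rats) the tangled CNT-T, which do not. The sample labels number the rats 3, 5, 10 and 11 (CNT-7) and 1, 2, 12 and 13 (CNT-T), and per-rat values are given in this order. No untreated rat was analysed here, so that every difference is between the particles, and in sorted bulk RNA fewer cells of a type and less RNA per cell cannot be told apart.

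Iron reaches macrophages as transferrin-bound iron through the transferrin receptor, and as haem from engulfed red cells, which is carried out of the phagosome and opened by haem oxygenase. Iron that is not used is kept in ferritin, a shell of heavy and light chains, or leaves the cell through ferroportin, which hepcidin removes from the surface. Iron regulatory proteins bind the mRNAs of the transferrin receptor, the ferritins and ferroportin when iron is scarce. Part of this control acts on translation, which counts of mRNA do not show.

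The depth was between 27195157 and 33732981 counts per rat, at which 3 counts correspond to 0.0887 to 0.109 CPM (counts per 1000000, on library sizes normalized by TMM). This floor covers counting error only. Within a group, Pearson's r between rats was 0.98 to 0.99 across genes, which are not independent replicates. All 10 macrophage markers were detected in every rat, but their summed level was 18600 to 24810 CPM in CNT-7 rats, compared with 26880 to 39110 CPM in CNT-T rats, 6 of them being significantly lower and 1 significantly higher after CNT-7. Most of this sum came from Lyz2, with a mean of 17590 CPM in CNT-7 rats, compared with 24350 CPM in CNT-T rats. Lyz2 was not among the significant markers, and the sum is mainly a reading of Lyz2. The 10 proliferation markers summed to 422.6 to 998 CPM in CNT-7 rats, compared with 1468 to 1658 CPM in CNT-T rats, and 10 of 10 were significantly lower after CNT-7.

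Of the 10 iron genes, 9 had enough counts to be tested, and 4 of these differed between CNT-7 and CNT-T at an adjusted p-value under 0.10 (quasi-likelihood test of edgeR, adjusted by Benjamini-Hochberg over all 12124 genes tested). Hamp and Fth1 were higher after CNT-7, whereas Slc11a1 and Cp were lower. Slc40a1 was practically undetected. Among all genes tested, 27.9% passed the same threshold, 13.9% being higher and 14.0% lower after CNT-7. Of the 9 genes, 2 (Slc11a1 and Hamp) had no overlap between the groups, against 24.9% of all genes. Hamp passed the filter on low counts only through the group in which it was high. Where at least 10 counts in every rat were required, Hamp was not tested and 3 of the iron genes passed the threshold. The median log2 fold change of the 9 genes was 0.12, and that of all genes 0.01.

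**Figure D1:**
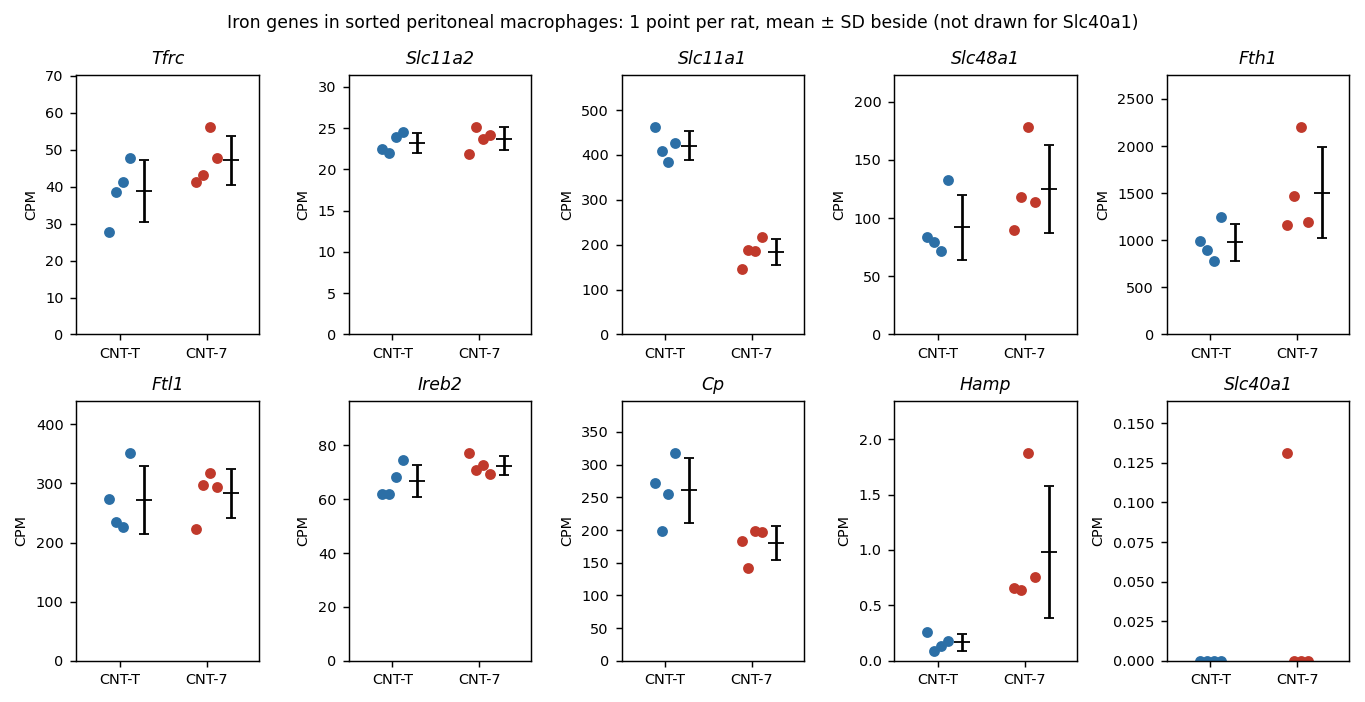
Level of each of the 10 iron genes in CPM (vertical axes from 0, 1 scale per gene) in the 4 CNT-T and the 4 CNT-7 rats, 1 point per rat, with the mean and SD of the group beside the points. The groups are apart for Slc11a1 and Hamp, and Slc40a1 was above 0 in 1 rat.

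**Figure D2:**
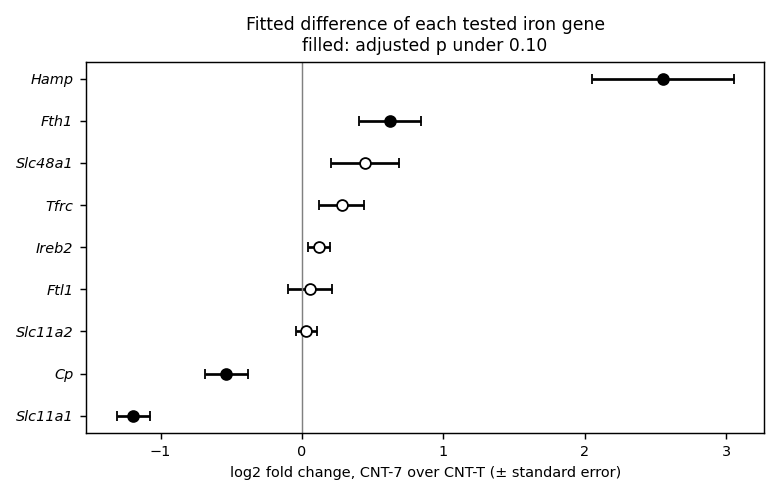
Fitted log2 fold change between the particles, positive where CNT-7 was higher (horizontal axis) with its standard error for the 9 tested iron genes, filled where the adjusted p-value was under 0.10. Hamp, at 2.55, and Slc11a1, at -1.19, lie at the ends, and Slc11a2 and Ftl1 lie within 0.10 of 0.

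Among the iron genes tested above, the lowest log2 fold change was that of Slc11a1 (ENSRNOG00000014956), which encodes Nramp1, the transporter that moves divalent metals out of the phagosome. Its level was 147, 188, 185 and 217 CPM in the CNT-7 rats and 463, 410, 384 and 426 CPM in the CNT-T rats. Every CNT-7 rat was below every CNT-T rat, by a wide margin compared with the spread within the groups. The mean was 184 ± 28.8 CPM (SD, n = 4) in CNT-7 rats, compared with 421 ± 33.1 CPM (SD, n = 4) in CNT-T rats. The log2 fold change was -1.19 (standard error 0.12, edgeR's adjusted p = 0.00033), that is, the level was 2.28-fold higher after CNT-T. Of all genes tested, 2.66% had a lower log2 fold change. With each rat left out in turn it stayed between -1.28 and -1.10 and significant in all 8 fits.

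Slc11a2 (ENSRNOG00000019550), the paralogue of Slc11a1, encodes DMT1, which carries iron from the endosome of the transferrin cycle into the cytosol. It had 21.9, 25.2, 23.7 and 24.1 CPM in CNT-7 rats, compared with 22.4, 22.0, 23.9 and 24.6 CPM in CNT-T rats. These groups overlapped entirely, and the highest of the 8 rats was 1.15 times the lowest, the smallest span among the 9 genes. The log2 fold change was 0.03 (standard error 0.08, edgeR's adjusted p = 0.82). A ratio within a library does not depend on the scaling between libraries, and the counts of Slc11a1 per count of Slc11a2 were 7.75 ± 0.95 (SD, n = 4) in CNT-7 rats, compared with 18.2 ± 1.96 (SD, n = 4) in CNT-T rats. This ratio was 6.70, 7.47, 7.82 and 8.99 in the CNT-7 rats and 20.7, 18.6, 16.1 and 17.3 in the CNT-T rats. The transcripts differ in length, so the ratio compares rats and not the levels of the paralogues.

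Tfrc (ENSRNOG00000001766) encodes the transferrin receptor, which is abundant on dividing cells. Its level was 41.3, 43.3, 56.3 and 47.7 CPM in CNT-7 rats, compared with 27.6, 38.5, 41.3 and 47.8 CPM in CNT-T rats. CNT-T rats 1 and 2 were the lowest of all rats, and the groups overlapped. The log2 fold change was 0.28 (standard error 0.16, edgeR's adjusted p = 0.26), and it passed the threshold in 0 of the 8 fits that left out a rat. The proliferation markers given above had a median log2 fold change of -1.17 in the same rats, opposite in sign to that of Tfrc, and their part in its level was not tested.

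Slc48a1 (ENSRNOG00000053196) encodes HRG1, which exports haem from the phagolysosome. It had 90.0, 118, 179 and 114 CPM in CNT-7 rats, compared with 83.6, 79.4, 71.8 and 133 CPM in CNT-T rats. In 3 of the 4 CNT-T rats it was below every CNT-7 rat, and CNT-T rat 13 was above 3 of the CNT-7 rats. The log2 fold change was 0.44 (standard error 0.24, edgeR's adjusted p = 0.23). Without CNT-T rat 13 it was 0.68 with an adjusted p = 0.056 from edgeR, and without CNT-7 rat 10 it was 0.22. Transcripts of alpha globin, which mark red cells and their precursors, moved with the particles. The summed erythroid markers were at 213 to 699 CPM in CNT-7 rats, compared with 14.1 to 54.8 CPM in CNT-T rats. Hba-a1 and Hba-a2 made up most of this sum, and of 4 tested markers only these were significantly higher. Hbb (log2 fold change 1.13, edgeR's adjusted p = 0.42) and Slc4a1 (log2 fold change 0.26, edgeR's adjusted p = 0.71) did not pass. Ahsp and Epor had at most 3 and 1 counts per rat, and Alas2 and Klf1 at most 14 and 18. The mean of Alas2 was 0.23 CPM after CNT-7 against 0.05 CPM after CNT-T, and that of Klf1 0.30 against 0.39 CPM. Reads of the nearly identical alpha globins could have been divided between them. Among the CNT-7 rats the sum was highest in rat 3 (699 CPM), where Slc48a1 was lowest, and lowest in rat 10 (213 CPM), where Slc48a1 was highest. Among the CNT-T rats the sum and Slc48a1 were both lowest in rat 12, whereas the sum was highest in rat 2 and Slc48a1 in rat 13. Hbb alone was highest in CNT-7 rat 3 (21.8 CPM) and CNT-T rat 13 (9.88 CPM). It was lowest in CNT-7 rat 10 (2.27 CPM) and CNT-T rat 12 (0.43 CPM). The part of red cells or their RNA in the levels of the iron genes was not tested.

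Fth1 (ENSRNOG00000022619) encodes the ferritin heavy chain, which oxidizes iron on its way into the shell. Its level was 1158, 1473, 2207 and 1189 CPM in CNT-7 rats, compared with 997, 895, 784 and 1246 CPM in CNT-T rats. The CNT-7 rats were mostly higher, but CNT-T rat 13 lay above CNT-7 rats 3 and 11. The mean was 1507 ± 488 CPM (SD, n = 4) in CNT-7 rats, compared with 980.3 ± 197 CPM (SD, n = 4) in CNT-T rats, with a log2 fold change of 0.62 (standard error 0.22, edgeR's adjusted p = 0.074). This call was weak, as 5 of the 8 fits that left out a rat were above the threshold. They were the fits without CNT-7 rat 5 or 10 and without CNT-T rat 1, 2 or 12, with log2 fold changes of 0.63, 0.38, 0.63, 0.58 and 0.53 and edgeR's adjusted p-values of 0.13, 0.15, 0.12, 0.17 and 0.18.

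Ftl1 (ENSRNOG00000020843) encodes the ferritin light chain, which favours the deposition of the iron core. It had 223, 297, 318 and 295 CPM in CNT-7 rats, compared with 274, 234, 227 and 352 CPM in CNT-T rats, and the groups overlapped. The log2 fold change was 0.06 (standard error 0.16, edgeR's adjusted p = 0.83). The Fth1 counts per Ftl1 count were 5.20, 4.97, 6.94 and 4.03 in the CNT-7 rats and 3.64, 3.83, 3.45 and 3.54 in the CNT-T rats. The groups did not overlap, CNT-7 being higher, and the CNT-7 rats differed more among themselves. The mean ratio was 5.29 ± 1.21 (SD, n = 4) in CNT-7 rats, compared with 3.62 ± 0.16 (SD, n = 4) in CNT-T rats, given as a description without a test, and it again compares rats rather than both chains. Ferritin genes have many near-identical copies in the rat genome. Of the rows named as ferritin heavy or light chain, only Fthl17e and Fthl17c stood in the table besides Fth1 and Ftl1, and they had 0 counts in every rat. How reads from other copies were assigned was not tested.

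**Figure D3:**
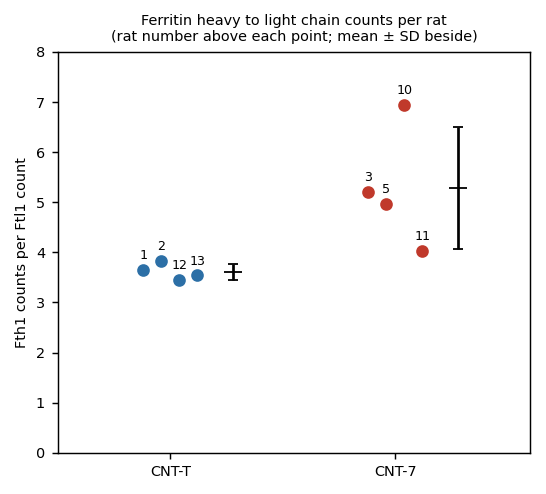
Counts of Fth1 per count of Ftl1 (vertical axis from 0) in each rat, with the rat number above the point and the mean and SD beside each group. The CNT-T rats lie between 3.45 and 3.83, and the CNT-7 rats between 4.03 and 6.94.

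Fth1, Ftl1 and Slc48a1 placed the rats of a group in the same order. After CNT-7 each of these 3 genes was highest in rat 10, followed by rats 5, 11 and 3, and after CNT-T each was highest in rat 13, followed by rats 1, 2 and 12. They were set together after their values were seen. Tfrc and Cp were also highest in CNT-7 rat 10 and CNT-T rat 13, with other orders below. Slc11a1, Slc11a2, Ireb2 and Hamp were not highest in both. Hmox1, the inducible haem oxygenase, was set beside Fth1, Ftl1 and Slc48a1 after its values were seen. It had 155, 406, 778 and 373 CPM in the CNT-7 rats and 140, 166, 77.7 and 1256 CPM in the CNT-T rats, a 16.2-fold span over the 8 rats. Its order was the same in the CNT-7 rats, and in the CNT-T rats its highest and its lowest rat were also the same. For Hmox1 no difference between the particles was detectable (log2 fold change 0.06, standard error 0.83, edgeR's adjusted p = 0.97), its spread within the groups being far larger than the difference of the means. CNT-T rat 13 was also the smallest CNT-T library, whereas CNT-7 rat 10 was the second smallest of its group, and the part of depth was not tested. When both rats were left out, the log2 fold change of Fth1 was 0.51 and that of Slc48a1 was 0.46, given without a test because these rats were chosen for being the highest in these genes.

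**Figure D4:**
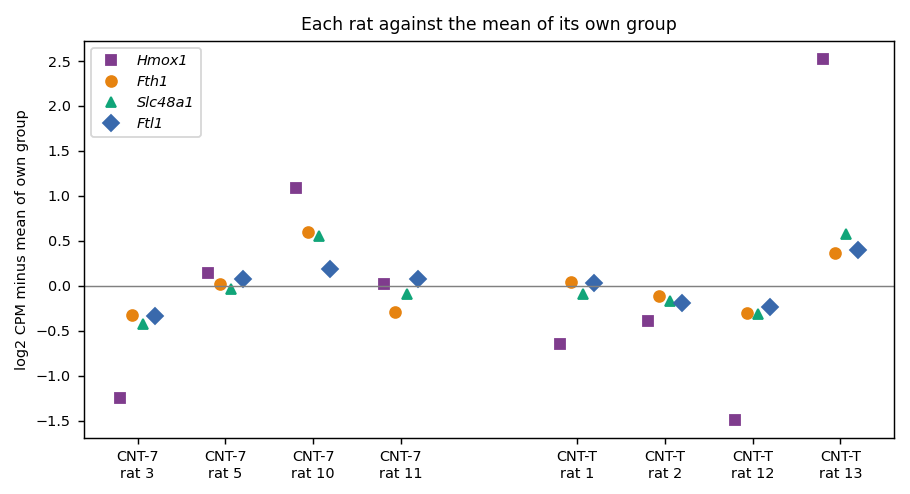
Log2 CPM of Hmox1, Fth1, Slc48a1 and Ftl1 in each rat minus the mean of its own group (vertical axis), with both groups side by side. CNT-7 rat 10 and CNT-T rat 13 are the highest of their groups for all 4 genes, and for Hmox1 rat 13 lies 2.53 above its group's mean.

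Ireb2 (ENSRNOG00000013271) encodes iron regulatory protein 2, which binds iron-responsive elements in mRNAs when iron is low. It had 77.2, 70.7, 72.6 and 69.1 CPM in CNT-7 rats, compared with 62.0, 62.0, 68.1 and 74.6 CPM in CNT-T rats. The groups overlapped through CNT-T rat 13, and the log2 fold change was 0.12 (standard error 0.08, edgeR's adjusted p = 0.32).

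Cp (ENSRNOG00000011913) encodes ceruloplasmin, the copper ferroxidase that accompanies the release of iron. Its level was 183, 142, 199 and 196 CPM in CNT-7 rats, compared with 271, 198, 255 and 318 CPM in CNT-T rats. The groups met at CNT-T rat 2, which was level with CNT-7 rats 10 and 11, and were otherwise apart. The mean was 179.9 ± 26.5 CPM (SD, n = 4) in CNT-7 rats, compared with 261 ± 49.4 CPM (SD, n = 4) in CNT-T rats. Cp was thereby lower after CNT-7 by 0.54 on the log2 scale (standard error 0.15, edgeR's adjusted p = 0.034), and it was significant in all 8 fits that left out a rat. Heph, the membrane-bound relative of Cp that was also named after its values were seen, had 99.0 ± 30.9 CPM in CNT-7 rats, compared with 133 ± 46.9 CPM in CNT-T rats, which is a difference smaller than the spread of the rats (log2 fold change -0.43, edgeR's adjusted p = 0.37).

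Hamp (ENSRNOG00000021029) encodes hepcidin, the hormone that closes ferroportin, made mainly by the liver and at low levels by macrophages. It was rare in every rat, with 20, 19, 52 and 21 counts in CNT-7 rats, compared with 8, 3, 4 and 5 counts in CNT-T rats. The groups did not overlap, CNT-7 being higher, and CNT-7 rat 10 was well above the other CNT-7 rats. On the CPM scale this was 0.98 ± 0.60 CPM (SD, n = 4) in CNT-7 rats, compared with 0.165 ± 0.074 CPM (SD, n = 4) in CNT-T rats, where CNT-T rat 2 was at the floor of 3 counts. The log2 fold change was 2.55 (standard error 0.50, edgeR's adjusted p = 0.0069), and 1.23% of all genes tested had a higher one. Only the CNT-7 rats had 10 or more counts, so that Hamp passed the filter on low counts through the group in which it was high, and it was not tested where at least 10 counts in every rat were required. Pooled over the rats, the 112 counts of CNT-7 and the 20 counts of CNT-T gave a ratio of 5.95 (exact 95% interval 3.67 to 10.1, counting error only). Without CNT-7 rat 10 the log2 fold change was 2.04.

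Slc40a1 (ENSRNOG00000049995) encodes ferroportin, the exporter of iron from cells. The whole series held 4 counts of it, all in CNT-7 rat 3 (0.13 CPM), and 0 counts in the other 7 rats, which allows a level of up to 0.0887 to 0.109 CPM in each of them. It did not pass the filter on low counts and no difference could be detected at this depth. The bound covers counting error only, and whether the transcript set used for quantification captured the reads of ferroportin was not tested.

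Promoter windows of RefSeq (build GRCr8, a later build than that of the authors' quantification) were matched by symbol to 6 of the 10 genes, Slc40a1, Tfrc, Slc11a2, Ireb2, Cp and Hamp. Fth1, Ftl1, Slc11a1 and Slc48a1 had no entry. Each window holds 250 bases before and 50 after a start of transcription. Shown are those of Hamp and Cp, the members with an entry that differed between the particles. Hamp lies at chr1:95300222-95300521 on the minus strand, and the capitals mark GGCGCC, the core of a BMP response element, and a STAT site of the form TTCNNNGAA. Cp lies at chr2:104368420-104368719 on the plus strand, and the capitals mark a TATA box, TATAAA.
Hamp: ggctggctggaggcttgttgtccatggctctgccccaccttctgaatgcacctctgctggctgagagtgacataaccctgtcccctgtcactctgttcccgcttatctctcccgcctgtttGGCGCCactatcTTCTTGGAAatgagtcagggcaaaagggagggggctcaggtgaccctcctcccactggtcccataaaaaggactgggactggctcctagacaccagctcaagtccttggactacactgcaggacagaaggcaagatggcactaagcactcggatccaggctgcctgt
Cp: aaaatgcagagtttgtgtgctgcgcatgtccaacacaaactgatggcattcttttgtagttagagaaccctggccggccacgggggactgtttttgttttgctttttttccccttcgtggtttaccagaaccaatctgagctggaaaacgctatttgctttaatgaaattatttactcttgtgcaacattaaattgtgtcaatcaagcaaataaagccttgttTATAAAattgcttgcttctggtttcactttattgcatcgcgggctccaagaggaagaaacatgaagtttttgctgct

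In Hamp the STAT site began 117 bases and the BMP element 129 bases before the start. Both motifs read the same on either strand, and 8.87% and 11% of all 33469 windows held them. Among the windows of the 6 genes, TTCNNNGAA was found in that of Hamp only, and GGCGCC in those of Hamp and Tfrc. The TATA box of Cp began 27 bases before the start, with an overlapping match on the other strand, and 14.2% of all windows held one on either strand. The core of the antioxidant response element, TGACNNNGC, was searched on both strands and found in 0 of the 7 windows of these genes and in 12.1% of all windows. The E-box CACGTG was also found in none of them and in 6.42% of all windows. These matches describe letters, and no binding was measured.

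The wider iron pathway was read from 62 other genes in 6 lists, of which 61 stood in the table and 50 were tested. At the same threshold 4 were significantly higher and 10 significantly lower after CNT-7, 28% of those tested, close to the share of all genes. Without CNT-7 rat 5, CNT-7 rat 10 or CNT-T rat 12, the number fell to 9, 8 and 8. In the same fits 2593, 2895 and 2578 of all genes passed, against 3383 with all rats. Without CNT-7 rat 11, 18 of the other iron genes and 3515 of all genes passed. The median log2 fold change of the 50 genes was -0.07. The largest shares were in the lists of uptake (4 of 11) and mitochondrial iron (6 of 13), whereas 3 of 17 haem genes, 1 of 5 regulators, 0 of 2 storage genes and 0 of 2 export genes passed.

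Of the 4 uptake genes that passed, Cybrd1 and Slc39a14 were higher and Cd163 and Hfe lower after CNT-7. Cybrd1, a ferric reductase of the cell surface, had 5.90 ± 0.77 CPM in CNT-7 rats, compared with 1.99 ± 0.71 CPM in CNT-T rats (SD, n = 4 each, log2 fold change 1.56, standard error 0.24, edgeR's adjusted p = 0.0024). Slc39a14, which encodes the metal importer ZIP14, had 32.0, 29.6, 74.8 and 43.9 CPM in CNT-7 rats, compared with 21.7, 21.2, 17.0 and 22.5 CPM in CNT-T rats (log2 fold change 1.13, standard error 0.27, edgeR's adjusted p = 0.016). In both genes the groups did not overlap. Cd163, the receptor for haemoglobin bound to haptoglobin, moved the other way, with 119.5 to 264 CPM in CNT-7 rats, compared with 478 to 705 CPM in CNT-T rats (log2 fold change -1.69, edgeR's adjusted p = 0.0011). It is also a marker of resident macrophages. Hfe, which encodes a partner of the transferrin receptor, had a log2 fold change of -0.59 (edgeR's adjusted p = 0.059) and overlapping groups. Tf, which encodes transferrin itself and was named after its values were seen, had 2382 ± 264 CPM in CNT-7 rats, compared with 2805 ± 476 CPM in CNT-T rats (log2 fold change -0.24, edgeR's adjusted p = 0.25).

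In the haem list, the 3 genes that passed were all lower after CNT-7. Alad, the second enzyme of haem synthesis, had 81.5 ± 9.38 CPM in CNT-7 rats, compared with 164.0 ± 21.3 CPM in CNT-T rats (SD, n = 4 each, log2 fold change -1.01, standard error 0.12, edgeR's adjusted p = 0.00062). Blvrb, a biliverdin reductase, was lower after CNT-7 by 0.23 on the log2 scale, with overlap (edgeR's adjusted p = 0.088). The 5 last enzymes of haem synthesis in the list did not pass, with log2 fold changes between -0.32 and 0.52, and Alas1, the first enzyme, had one of 0.02.

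Of the mitochondrial iron genes, 4 were lower and 2 higher after CNT-7. Slc25a37, which encodes the iron importer mitoferrin 1, had 11.8 ± 1.51 CPM in CNT-7 rats, compared with 18.9 ± 3.58 CPM in CNT-T rats (log2 fold change -0.69, edgeR's adjusted p = 0.0099). Isca1, a late cluster assembly factor, had a log2 fold change of -0.37 (edgeR's adjusted p = 0.0070), and its groups did not overlap. Mitoferrin 2 (Slc25a28, log2 fold change -0.27, edgeR's adjusted p = 0.069) also passed, with overlapping groups. Nfs1 (log2 fold change 0.16, edgeR's adjusted p = 0.0998) passed at the edge of the threshold. Spic, the transcription factor of iron-recycling macrophages, was the only regulator that passed, with a log2 fold change of -1.01, overlapping groups and 1.34 ± 0.55 CPM after CNT-7 against 2.69 ± 0.89 CPM after CNT-T. Aco1, the other iron regulatory protein, had a log2 fold change of 0.05 (edgeR's adjusted p = 0.72).

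**Figure D5:**
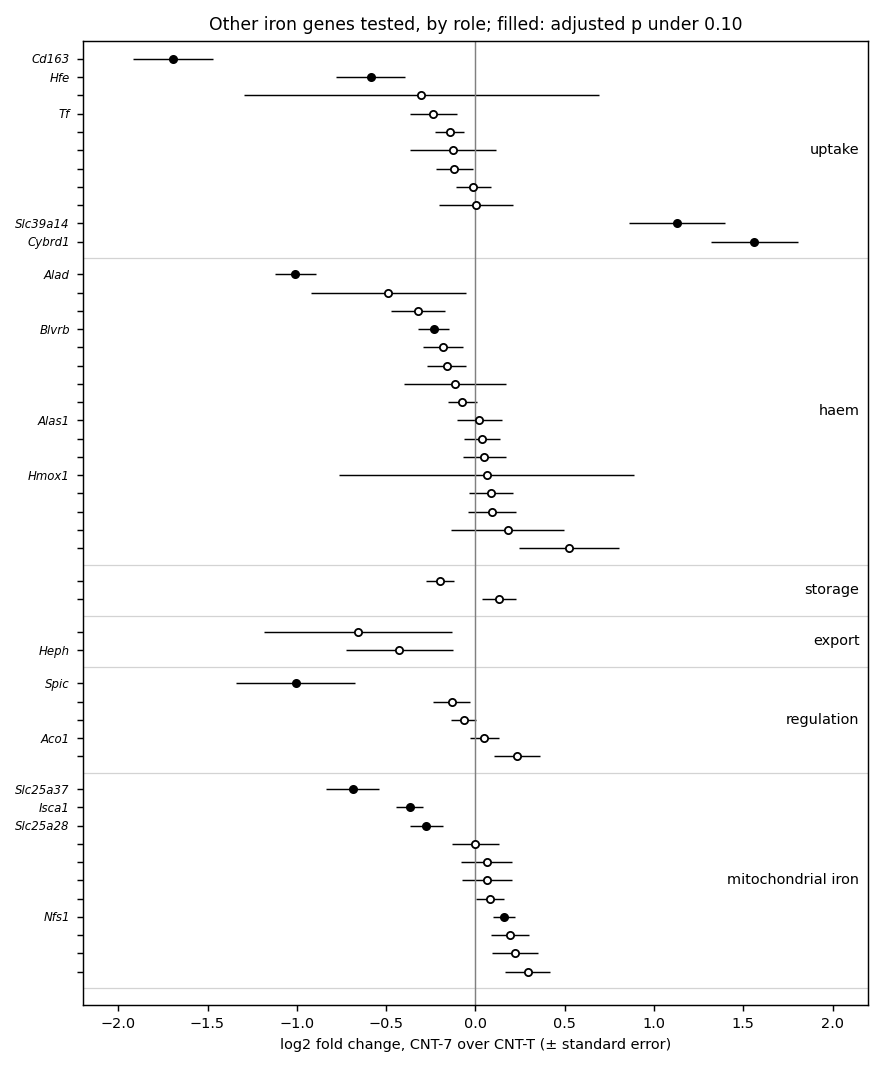
Log2 fold change between the particles, positive where CNT-7 was higher (horizontal axis, with the standard error) of other iron genes tested, grouped by role, labelled where the text names them and filled where the adjusted p-value was under 0.10. Cybrd1 at 1.56 and Cd163 at -1.69 are at the ends, most of the haem genes lie within 0.55 of 0, and a few tested genes are not drawn.

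Besides the erythroid markers given above, markers of 6 other cell types that the sort could hold were examined. Neutrophil markers summed to 43.9 to 85.2 CPM in CNT-7 rats, compared with 27.2 to 70.3 CPM in CNT-T rats, with 1 of 6 tested genes significantly lower after CNT-7 and Mpo at 0 counts in every rat. The summed markers of eosinophils were at most 9.33 CPM and those of B cells at most 2.65 CPM, with Epx at 0 counts. T-cell markers were at most 8.91 CPM, those of mast cells at most 1.75 CPM and those of mesothelial cells at most 0.30 CPM, with Upk3b and Wt1 at 0 counts. None of these 5 lists had a gene that passed the test, and 3 of them had no gene with enough counts.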

How the data were processed

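Reads were checked with FastQC and quantified by the authors in the ARMOR workflow with Salmon (version not given in the sources used here) on the Ensembl cDNA set of Rnor_6.0, and tximeta imported the estimates. Deposited were the authors' estimated counts by gene, not normalized, which were already whole numbers, so that rounding changed nothing. All 8 columns were used. The whole table was fitted with edgeR 4.0.16 (R 4.3.3): TMM, filterByExpr (minimum count 10, minimum total 15), quasi-likelihood test of CNT-7 against CNT-T, Benjamini-Hochberg adjustment, threshold 0.10 as in the study. Standard errors are the log2 fold change over the square root of F. For the repeated symbol Nfs1, the other of its 2 rows had 0 counts. Alternatives were DESeq2 1.42.0, upper-quartile scaling, other filters and thresholds, a term for rat numbers, and each rat left out. Listed genes without a row were not analysed here, and a few listed genes are counted but not reported by name.

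Members and gene lists were chosen with earlier results of these data known, and the 3 motifs GGCGCC, TTCNNNGAA and TATAAA after the sequences were seen. Besides all 10 members, the 4 other iron genes per list with the largest changes were named, among those significant, without overlap and with at least 1 CPM. Others were named after their values were seen. The fits were also run on a single simulated data set, in which a larger share of the calls was false with DESeq2 than with edgeR. It held far fewer changed genes than were called here and used dispersions estimated by edgeR. It therefore cannot rank the tools for these data. Estimated counts can divide reads between near-identical copies, as for ferritins and globins.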

Additional observations from a re-analysis of the deposited data

Results flagged for a closer look

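A single rat stood apart from the other 3 of its group in 7 of 61 groups examined. In these the ratio, the gap to the nearest rat over the range of the group, was above the 95% critical value of Dixon's test. By chance about 3.05 would be flagged if the groups were independent and their values normally distributed. The groups share the same rats and are not independent, so 7 cannot be judged against this number. Among the iron genes, CNT-7 rat 10 had 1.88 CPM of Hamp (ratio 0.9) while the rest of its group had 0.64 to 0.76 CPM. CNT-7 rat 3 was the only rat with counts of Slc40a1 (ratio 1), 0.13 CPM. With 0 counts in the rest of its group the ratio is 1 at any level, so this flag, 1 of the 7, rests on 4 counts and tests nothing. CNT-T rat 13 had 1256 CPM of Hmox1 (ratio 0.925) while the rest of its group had 77.7 to 166 CPM.

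The remaining 4 were sums of cell type markers in CNT-7 rats. Eosinophil markers were highest in rat 3 (ratio 0.947), at 9.33 CPM. Rat 5 was highest for B-cell markers (ratio 0.979), at 2.65 CPM, for T-cell markers (ratio 0.924), at 8.91 CPM, and for mesothelial markers (ratio 0.88), at 0.30 CPM. The part of these rats' other cells in the iron genes was not tested.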

How the results depend on the processing

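Of 233 fold changes recomputed for the tested members and other iron genes chosen by the rule, without the fits that left out both CNT-7 rat 10 and CNT-T rat 13, 216 kept their direction and their side of the threshold. Reversed were Ftl1 without CNT-T rat 2 (-0.0072) or 12 (-0.0193) and Slc11a2 without CNT-7 rat 5 (-7e-04), whose highest values without 1 rat were 0.207 and 0.0681. A fold change of at least 2 left 1006 of all genes, 2 members and 5 other iron genes, fewer because the criterion is stricter. An adjusted p-value under 0.05 left 8 other iron genes, and leaving out both CNT-7 rat 10 and CNT-T rat 13 left 9, with fewer samples and the rats chosen on their values of member genes. DESeq2 called 3633 genes, 4 members and 15 other iron genes, against 3383, 4 and 14 by edgeR. Without each rat in turn, 2578 to 3515 genes, 3 to 5 members and 8 to 18 other iron genes passed, and the difference in the log2 ratio of Fth1 to Ftl1 was 0.38 to 0.64 (0.52 with all rats). Slc11a1, Cp and Hamp kept an adjusted p-value under 0.10 in every fit in which they had a value, and Hamp had none with at least 10 counts in every rat. Summing ferritin copies tested nothing, since the other ferritin rows had 0 counts, and is not among these fold changes. No paired analysis was possible because the groups share no rat number. Counts of a few per rat limit Hamp and Slc40a1.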
